A study of Homo sapiens with 10 samples.

Results

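The replication-dependent histone gene cluster of band 6p22 was examined through its acetylation islands, stretches of DNA with more antibody reads than a control. Members were all islands of 9 lists that overlapped any of 3 hg19 windows by at least 1 bp: chr6:26015000-26290000 (window 1), chr6:27095000-27120000 (window 2) and chr6:27770000-27870000 (window 3). They numbered 309 of the 778773 islands in the lists. The lists came from CUT&RUN, in which a nuclease tethered to an antibody cuts DNA around the mark and the freed pieces are read, on immortalized human astrocytes (IHA), a fetal SV40-immortalised line. H3K9ac, H3K27ac and H4K16ac were each profiled in untreated cells (noDox, labelled WT IDH1) and in cells given 1 µg/ml doxycycline for 2 or 7 days (2d-Dox and 7d-Dox, labelled IDH1-R132H). IDH1-R132H is a mutant isocitrate dehydrogenase of gliomas, known for producing 2-hydroxyglutarate, and the study asked how its induction alters histone acetylation. The only control was an anti-rabbit HRP secondary antibody on noDox cells. No doxycycline-treated library without the mutant enzyme was among the samples, so the drug, time in culture and IDH1-R132H cannot be told apart. The labels do not say whether the inducible line is 1 clone. Astrocyte marker genes were not analysed here, since no annotation on hg19 was at hand.

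Replication-dependent histone genes encode the core histones H2A, H2B, H3 and H4 and the linker histone H1 that package newly made DNA. They are transcribed mainly in S phase, lie in clusters, lack introns, and give messages that end in a stem-loop in place of a poly(A) tail. Nuclear foci called histone locus bodies, organised by NPAT, gather at these clusters and bring together their transcription and RNA processing. H3K27ac and H3K9ac are typical of active regulatory DNA, while H4K16ac spreads more broadly over open chromatin. The lysines measured here lie on the H3 and H4 proteins, which the cluster itself encodes.

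RefSeq (GRCh38.p14) orders 53 genes with symbols of these histone classes in 3 runs of 32, 5 and 16. They are 6 H1, 11 H2A, 14 H2B, 10 H3 and 12 H4 genes. Genes were taken by symbol only, so not every one need be replication-dependent. A separate pair, H2AC1 and H2BC1 between SLC17A1 and SLC17A4, was left out. The first run goes from H1-1 to H4C8 between TRIM38 and BTN3A2, with 1 other protein-coding gene inside it. The second goes from H2BC11 to H2AC12 between ZNF322 and PRSS16, and the third from H2BC13 to H2BC17 between ZNF184 and OR2B2. These names give order only: the islands are on hg19, so no island was assigned to a gene. The 200 bases before the start of the first gene of each class with an entry in RefSeq's promoter table are shown. They run 5′ to 3′ on the gene's strand, and are given because promoter elements differ among the cluster's classes. Capitals mark the TATA box (TATAAA), the CCAAT box, the octamer (ATTTGCAT), the H1 element (AAACACA) and the H4 subtype element (GGTCCG), on either strand.
H1-1 (chromosome 6, 26017788 to 26017987, minus strand): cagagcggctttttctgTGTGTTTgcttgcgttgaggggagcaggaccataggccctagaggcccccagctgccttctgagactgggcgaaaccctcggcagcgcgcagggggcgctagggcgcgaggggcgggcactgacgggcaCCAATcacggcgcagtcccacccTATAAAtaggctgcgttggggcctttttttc
H2AC4 (chromosome 6, 26033619 to 26033818, minus strand): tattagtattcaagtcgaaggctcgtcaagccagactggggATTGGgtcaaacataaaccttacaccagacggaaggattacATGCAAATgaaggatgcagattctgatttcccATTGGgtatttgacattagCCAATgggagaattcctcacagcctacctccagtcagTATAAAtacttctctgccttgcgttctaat
H2BC3 (chromosome 6, 26043714 to 26043913, minus strand): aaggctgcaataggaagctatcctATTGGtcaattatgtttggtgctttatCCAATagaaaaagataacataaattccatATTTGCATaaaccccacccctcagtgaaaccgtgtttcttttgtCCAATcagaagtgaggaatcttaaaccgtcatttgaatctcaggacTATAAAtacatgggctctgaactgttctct
H3C1 (chromosome 6, 26020251 to 26020450, plus strand): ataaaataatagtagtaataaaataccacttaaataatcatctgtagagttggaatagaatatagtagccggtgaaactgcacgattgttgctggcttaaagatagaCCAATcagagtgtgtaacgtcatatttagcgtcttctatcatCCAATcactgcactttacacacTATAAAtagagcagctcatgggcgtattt
H4C2 (chromosome 6, 26027284 to 26027483, minus strand): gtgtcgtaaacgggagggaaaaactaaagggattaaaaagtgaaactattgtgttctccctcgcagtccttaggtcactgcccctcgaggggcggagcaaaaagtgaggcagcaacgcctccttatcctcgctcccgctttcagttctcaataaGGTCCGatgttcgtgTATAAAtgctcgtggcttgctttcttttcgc

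H1 encodes the linker histone, and the H1-1 promoter held its AAACACA match 183 bases before the start, beyond a CCAAT at 54 and a TATAAA at 31. H2AC4 and H2BC3, which encode core histones that pair with each other, both had an octamer, at 118 and 120 bases. H3C1 had a pair of CCAAT matches, and H4C2 had GGTCCG at 46 bases and no CCAAT. Over the 250 bases before the start, 48 of the 53 genes had a promoter in the table, in 52 entries, and these were set against all 35116 promoters there, on both strands. TATAAA occurred in 34 of 52 (65.4%, against 10.7% of all promoters) and CCAAT in 45 (86.5%, against 32.0%), which were every H1, H2A, H2B and H3 entry and 3 of 10 H4 entries. The octamer was in 8 of 10 H2A and 12 of 16 H2B entries, in 1 of 10 for H3 and in none for H1 or H4, against 1.63% of all promoters. AAACACA was in all 6 H1 entries and no other class (4.82% of all promoters), and GGTCCG in 9 of 10 H4 entries and 1 of 10 for H3 (9.43%). H1, H3 and H4 entries thus differed in these letters from each other and from H2A and H2B, which were much alike. A match describes sequence only.

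Every mark had a single library at each time. There are thus no replicates and no test between times, and intervals below are exact 95% intervals for counting error only. Reads were divided by library size relative to the HRP library, which for H3K9ac was 3.05 at noDox, 4.17 at 2d-Dox and 4.88 at 7d-Dox. In the same order H3K27ac had 3.98, 3.15 and 1.49, and H4K16ac had 2.53, 3.08 and 7.88. The 7-day libraries were therefore 1.60, 0.375 and 3.11 times the size of their noDox libraries. A deeper library lets a caller list weaker and wider islands. Summed over the 3 windows, called length and library size moved together for each mark, but not in every window. In window 2 H3K9ac length went from 17.8 to 10.8 and 10.6 kb while library size rose. The part of depth was not tested. Both times are compared with the same noDox library of a mark, so their ratios are not independent.

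The histone windows were covered by islands more densely than the rest of chromosome 6 in all 9 lists, and most of all in H3K27ac. H3K27ac islands covered 64.6% of the windows at noDox, 60.1% at 2 days and 52.0% at 7 days, where the rest of chromosome 6 had 9.86%, 8.39% and 7.02%. H3K9ac covered 45.1%, 45.6% and 49.9% of the windows against 11.2%, 11.5% and 13.2% of the rest. H4K16ac stood apart from these marks: it covered 13.3% and 15.5% of the windows at noDox and 2 days, close to the 9.80% and 12.2% of the rest, and 39.9% against 21.7% at 7 days. Single windows did not all lie above the rest for H4K16ac. Window 3 had 8% at noDox and 9.6% at 2 days, and window 2 had 3.2% at 2 days, all below the rest. Window 1 (15.3% and 18.8%) and window 2 at noDox (11.2%) lay above it. The windows are gene-dense, and no gene-dense stretch was matched to them. The stretches between the windows, 805 kb and 650.0 kb long, were much less covered. H3K27ac took up 14.9%, 15.4% and 12% of the first stretch and 9.48%, 9.97% and 5.94% of the second. In the second stretch H4K16ac covered 0.431%, 0.462% and 1.23%.

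**Figure D1:**
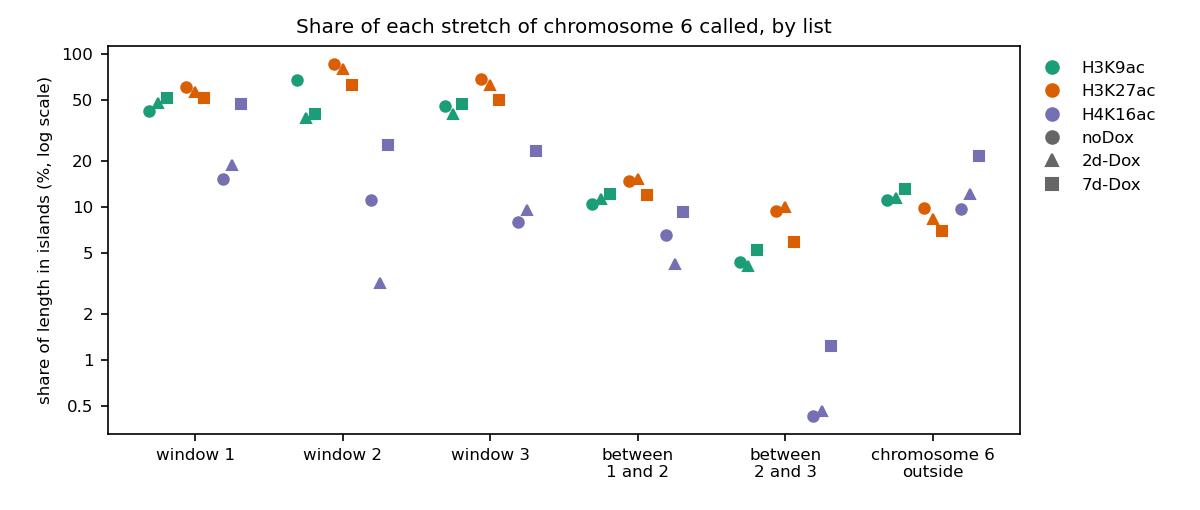
Share of each stretch of chromosome 6 that lay in islands (percent, log axis), with 1 point per list, marks in colour and times by shape. H3K27ac and H3K9ac sat between 38.4% and 87.2% in each of the 3 windows, while H4K16ac in the windows lay between 3.2% and 18.8% except at 7 days.

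H3K27ac over the cluster kept nearly its summed signal while its islands became shorter and more numerous. The windows held 26 islands with 15832 reads over 260.8 kb at noDox, 30 islands with 12710 reads over 243.8 kb at 2 days, and 42 islands with 5592 reads over 209.2 kb at 7 days. Scaled to library size these reads were 3978, 4038 and 3750, so the 3 libraries differed little in sum. The log2 ratio to noDox was 0.02 (-0.01 to 0.06) at 2 days and -0.09 (-0.13 to -0.04) at 7 days, with called length at -0.10 and -0.32. The direction at 7 days turned under other choices: it was 0.06 when centred on the median of all H3K27ac regions and 0.17 when only islands lying wholly inside a window were counted. The last choice drops the noDox island of 1699 reads that crosses the start of window 1. It keeps a 7-day island of 502 reads there, so it does not compare like stretches. Scaled reads per kb of island were 15.3, 16.6 and 17.9, higher than on the rest of chromosome 6 (10.6, 11.8 and 14.2) in all 3 lists. HRP reads per kb of the same islands were 2.05, 2.22 and 2.2 in the windows and 2.16, 2.17 and 2.15 on the rest; the part of the control in that difference was not tested. Shorter and more numerous islands were found on the rest of chromosome 6 as well, with 3025, 3389 and 4776 islands of a median 4200, 3200 and 1800 bp, beside medians of 9200, 6900 and 4000 bp in the windows. There the 7-day log2 ratio was -0.07 (-0.08 to -0.07) for reads and -0.49 for called length.

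**Figure D2:**
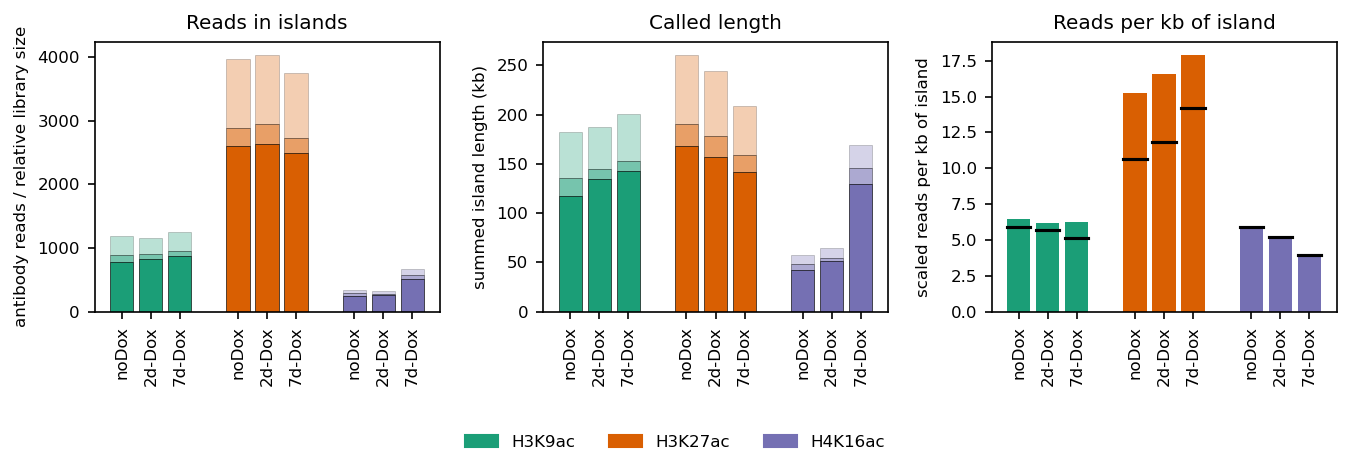
Scaled antibody reads, summed island length (kb) and scaled reads per kb of island over the histone windows, by mark and time, with shades from dark to pale for windows 1, 2 and 3 and black lines for the rest of chromosome 6. H3K27ac length went from 260.8 to 209.2 kb while its scaled reads stayed between 3750 and 4038, and H4K16ac length went from 57.0 to 169.4 kb.

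Islands of a mark that touched over its 3 lists were merged into regions, which gave 26 H3K27ac regions in the windows. Of these, 20 had an island at all 3 times (76.9%, against 44.1% of all H3K27ac regions). At 2 days 0 of 21 shared regions were at least 2-fold higher (background 0.457% of shared regions) and 1 at least 2-fold lower (background 3.38%). At 7 days 0 of 20 were 2-fold higher (2.2%) and 1 was 2-fold lower (8.61%). Neither count stands away from its background at this number of regions. The median log2 ratio over the shared regions was 0.04 at 2 days and -0.07 at 7 days, beside -0.12 and -0.14 over all H3K27ac regions. Of the 26 noDox islands, 1 had no island over it at 2 days (background 12%) and 2 had none at 7 days (20.4%), and these held at most 67 reads. In the other direction, 2 of 30 islands at 2 days (13.3%) and 4 of 42 at 7 days (35.5%) had none at noDox, with at most 49 reads. The backgrounds here and below were not matched for the width or density of islands.

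The H3K27ac domains with the most reads lay at the start of window 1 and towards its far end. The domain at chr6:26014601-26038000, at the edge where window 1 begins, held 1699, 1493 and 599 reads at noDox, 2 days and 7 days, with log2 ratios of 0.15 (0.05 to 0.25) and -0.09 (-0.22 to 0.05). It was 1 island at the first 2 times and 2 islands at 7 days. The domain at chr6:26182201-26210000 had the most reads at noDox, with 1793, 1291 and 554 reads in 2, 1 and 4 islands and ratios of -0.14 (-0.24 to -0.03) and -0.28 (-0.42 to -0.14). Both domains were thus listed in more islands at 7 days. The neighbouring domain at chr6:26212401-26237800, which held the widest noDox island (23.2 kb), had 1472, 1146 and 493 reads in 1, 2 and 3 islands, and ratios of -0.02 (-0.14 to 0.09) and -0.16 (-0.31 to -0.01). The domain at chr6:26266401-26288400, at the far end of window 1, had 1053, 805 and 379 reads and ratios of -0.05 (-0.18 to 0.09) and -0.06 (-0.23 to 0.11). In window 3, the domain at chr6:27772201-27794000 had 1277, 938 and 361 reads, with ratios of -0.11 (-0.23 to 0.02) and -0.41 (-0.58 to -0.24). Window 2 was nearly filled by 1 domain, chr6:27093601-27117800, whose 1174, 985 and 358 reads gave 0.09 (-0.04 to 0.21) and -0.30 (-0.47 to -0.13) in 2, 2 and 5 islands. In these 6 domains, which hold the most H3K27ac reads, the 7-day ratio lay between -0.41 and -0.06, and none was 2-fold. They were chosen by reads summed over the lists, to which the noDox library gave the most, so their 7-day ratios are a description only. Regions with fewer reads lay on both sides of 0 at 7 days, from -1.37 to 0.20.

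**Figure D3:**
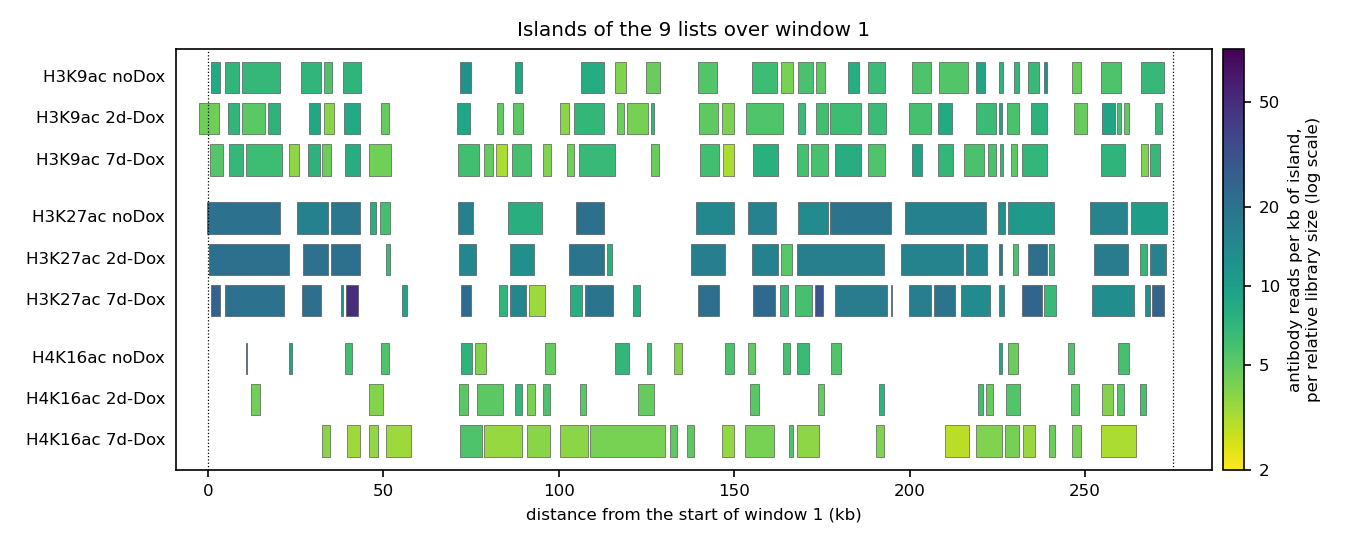
Islands of the 9 lists along window 1 (kb from its start, dotted lines at its ends), 1 track per list, shaded by scaled antibody reads per kb of island on a log scale. H3K27ac islands are fewer and wider at noDox (17) than at 7 days (29). H4K16ac islands at 7 days also lie over stretches where no H4K16ac island was called at noDox. The H4K16ac library sizes relative to HRP were 2.53 at noDox and 7.88 at 7 days.

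The H3K27ac regions with the lowest ratios were small ones. The region at chr6:27868401-27872000, across the end of window 3, held 117, 115 and 17 reads over 3.0, 3.6 and 1.0 kb. It had the largest ratio at 2 days, 0.31 (-0.07 to 0.70), and the smallest at 7 days, -1.37 (-2.19 to -0.63), and both rest on the same 117 noDox reads. The region at chr6:26064001-26067000 had 67 reads at noDox, 25 at 2 days (-1.08, -1.81 to -0.40) and no island at 7 days. These are the only regions past 2-fold among the shared ones. At chr6:26050001-26058400 the reads were 619, 537 and 267 over 8.4, 8.2 and 4.2 kb, so the ratio at 7 days was 0.20 (-0.01 to 0.41) in sum and 1.20 per kb of island. A similar sum was thus listed over a shorter length. The other 17 regions held between 16 and 1033 reads where they had an island, with ratios from -0.56 to 0.28 at 2 days and from -0.63 to 0.18 at 7 days.

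H3K9ac over the cluster was close to level in sum and was laid out in many medium-sized islands. The windows held 40 islands with 3605 reads over 182.4 kb at noDox, 48 with 4830 reads over 187.8 kb at 2 days, and 45 with 6140 reads over 200.2 kb at 7 days. Scaled reads were 1182, 1158 and 1257, and the highest was 1.09 times the lowest. The log2 ratio was -0.03 (-0.09 to 0.03) at 2 days and 0.09 (0.03 to 0.15) at 7 days, and the latter turned to -0.08 when only islands at least 2-fold over HRP were counted. Called length gave 0.04 and 0.13, and reads per kb of island were 6.48, 6.16 and 6.28, beside 5.89, 5.68 and 5.12 on the rest of chromosome 6. HRP reads per kb of island were also higher in the windows, at 2.16, 2.14 and 2.18 against 1.96, 1.90 and 1.91; their part in that difference was not tested. The windows did not move alike. Window 2 held 340, 289 and 387 reads over 17.8, 10.8 and 10.6 kb, with ratios of -0.69 (-0.92 to -0.46) at 2 days and -0.49 (-0.71 to -0.28) at 7 days. Window 1 had 0.09 (0.01 to 0.17) and 0.17 (0.10 to 0.25), and window 3 had -0.17 (-0.30 to -0.04) and 0.03 (-0.09 to 0.15).

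Of the 40 H3K9ac regions, 29 had an island at all 3 times (72.5%, against 37.1% of all H3K9ac regions). At 2 days 1 of 31 shared regions was at least 2-fold higher (background 4.69%) and 1 at least 2-fold lower (9.48%). At 7 days 1 of 29 was higher (5.8%) and 0 lower (6.2%). The shares were near the background, and the medians were -0.10 and -0.12, beside -0.12 and -0.04 over all H3K9ac regions. Of the 40 noDox islands 1 had no island at 2 days (background 26.5%) and 5 had none at 7 days (26%), with at most 81 reads. Of the islands at 2 days 7 of 48 (36.9%) had none at noDox, and of those at 7 days 9 of 45 (33.8%). All 4 of these shares were below their backgrounds. Background islands were not matched for width or density, and the noDox islands of the windows were wider (median 4100 bp, against 3000 bp over all chromosomes).

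The highest H3K9ac sum lay inside the first H3K27ac domain, at chr6:26019801-26036000, with 314, 340 and 452 reads and log2 ratios of -0.34 (-0.56 to -0.11) and -0.15 (-0.37 to 0.06). That at chr6:26115401-26134200 had 212, 326 and 374 reads (0.17, -0.09 to 0.42, and 0.14, -0.11 to 0.39). Next came chr6:26223001-26239600 with 211, 300 and 380 reads (0.06, -0.20 to 0.32, and 0.17, -0.08 to 0.42). Apart from the first region at 2 days, these intervals span 0. In window 3, chr6:27855401-27867200 held 223, 269 and 359 reads (-0.18, -0.44 to 0.08, and 0.01, -0.24 to 0.25). Nearby chr6:27796601-27808400, with the widest noDox island at 11.6 kb, held 224, 266 and 325 reads (-0.20, -0.47 to 0.06, and -0.14, -0.39 to 0.11). The region at chr6:26168401-26181800 held 180, 240 and 262 reads (-0.04, -0.32 to 0.25, and -0.14, -0.42 to 0.14). None of the 6 regions with the most H3K9ac reads changed beyond counting error at 7 days. They too were chosen by reads summed over the lists, to which the 7-day library gave the most, so this is a description only.

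The largest H3K9ac ratios came from regions whose called length changed. At chr6:26192401-26201200 there were 79 reads over 3.2 kb at noDox, 230 over 8.6 kb at 2 days and 300 over 7.6 kb at 7 days. The log2 ratios were 1.09 (0.71 to 1.48) and 1.25 (0.88 to 1.62) in sum, and -0.34 and 0.00 per kb. This stretch lies inside the second H3K27ac domain named above, whose own sum was slightly lower at both times. At chr6:26281001-26287400 the reads were 131, 56 and 129 over 6.4, 2.0 and 4.6 kb, which gave -1.68 (-2.16 to -1.22) and -0.70 (-1.06 to -0.34). At chr6:26134401-26143800 they were 57, 137 and 51 over 4.0, 7.0 and 2.2 kb, which gave 0.81 (0.36 to 1.28) and -0.84 (-1.41 to -0.27). The 2 later times thus lay on opposite sides of noDox in the last region. At chr6:27830201-27842200, which held the widest 7-day island (12 kb), there were 144, 139 and 386 reads, with -0.50 (-0.85 to -0.16) and 0.74 (0.46 to 1.03). The other 30 H3K9ac regions held between 27 and 242 reads where they had an island, with ratios from -0.80 to 1.00 at 2 days and from -0.71 to 0.91 at 7 days.

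Of the 3 marks, H4K16ac had the summed reads and called length over the cluster that differed most from noDox, at 7 days. The windows held 24 islands with 839 reads over 57.0 kb at noDox, 22 with 1006 reads over 64.2 kb at 2 days, and 32 with 5210 reads over 169.4 kb at 7 days. Scaled reads were 331, 326 and 661, so the 7-day sum was 2.00 times that of noDox. The log2 ratio was -0.02 (-0.16 to 0.11) at 2 days and 1.00 (0.89 to 1.10) at 7 days. The rest of chromosome 6 had 0.13 (0.13 to 0.14) and 0.57 (0.56 to 0.57), so the windows lay below it at 2 days and above it at 7 days; with 1 library a group that difference has no test. The stretch between windows 1 and 2 had -0.15 (-0.26 to -0.04) at 7 days, and that between windows 2 and 3 had 0.76 (0.31 to 1.24). The excess at 7 days was one of length: called length gave 1.57 in the windows and 1.14 on the rest of the chromosome. Reads per kb of island were 5.81, 5.08 and 3.90 in the windows, almost as on the rest (5.91, 5.20 and 3.97). HRP reads per kb of island were 1.56, 1.84 and 1.86 in the windows, beside 1.81, 1.89 and 1.90. The size of the 7-day ratio depended on scaling, at 0.49 when libraries were scaled by their summed island reads and 0.57 when centred on all H4K16ac regions, and it was 0.34 over islands at least 2-fold above HRP.

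All 3 windows had a higher H4K16ac sum at 7 days: 1.05 (0.93 to 1.17) in window 1, 0.62 (0.29 to 0.95) in window 2 and 0.97 (0.69 to 1.26) in window 3. At 2 days window 2 was lower, with 57 reads after 94 at noDox and a ratio of -1.01 (-1.51 to -0.52). Windows 1 and 3 were within counting error of noDox then, at 0.08 (-0.07 to 0.23) and -0.02 (-0.38 to 0.35). Called length went from 42.2 to 51.6 and 129.8 kb in window 1, from 5.8 to 3.0 and 16.2 kb in window 2, and from 9.0 to 9.6 and 23.4 kb in window 3. These are lengths of whole islands. Inside window 2 the called length was 2.8, 0.8 and 6.4 kb at noDox, 2 days and 7 days. The region at chr6:27085201-27095800, which begins before window 2, held 65, 57 and 284 of its 94, 57 and 448 reads. The window 2 ratios thus rest largely on islands lying mostly outside the window.

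**Figure D4:**
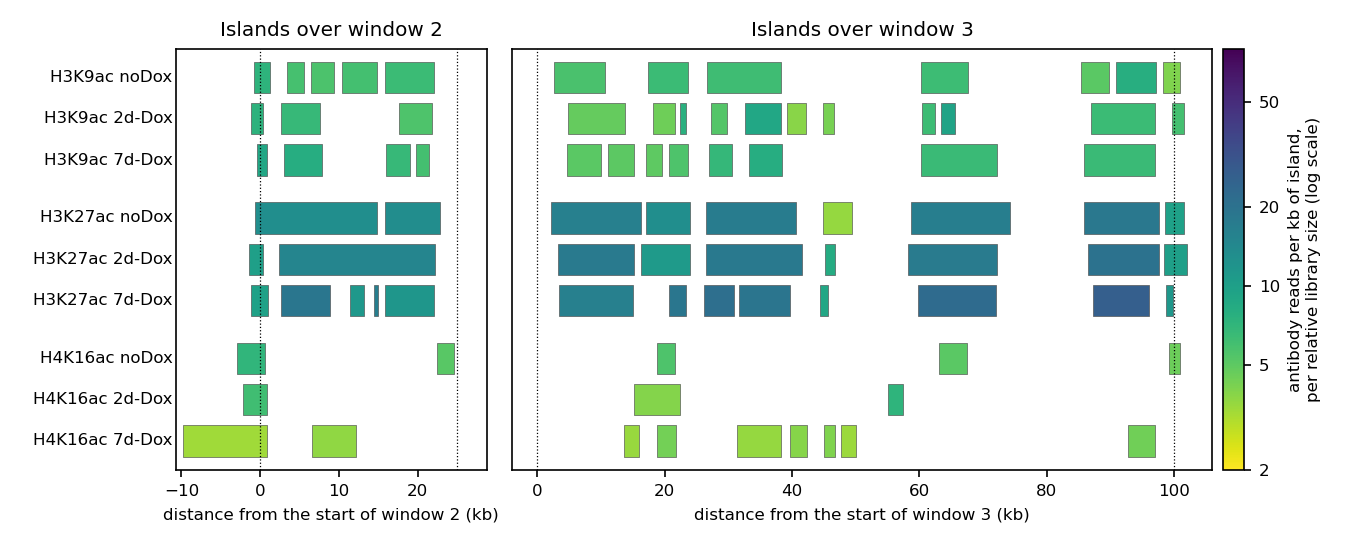
Islands of the 9 lists along windows 2 and 3 (kb from the start of each, dotted lines at the ends), shaded by scaled antibody reads per kb of island on a log scale. H3K27ac covers most of window 2 in every list, and H4K16ac islands at 7 days number 2 in window 2 and 7 in window 3.

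Fewer H4K16ac regions of the windows were present at every time. Of 38 regions, 12 had an island at all 3 times (31.6%, near the 30.3% of all H4K16ac regions). An island at noDox alone was found in 6 (15.8%, against 18.1% of all H4K16ac regions), at 2 days alone in 3 (7.89%, against 10.9%) and at 7 days alone in 11 (28.9%, against 15.0%). At 2 days 1 of 12 shared regions was at least 2-fold higher (background 15.2%) and 1 at least 2-fold lower (8.39%). At 7 days 5 of 16 were higher (31.3%, background 22.9%) and 0 lower (2.4%). The medians were 0.43 and 0.47, beside 0.15 and 0.42 over all H4K16ac regions. Of the 24 noDox islands 13 had no island at 2 days (54.2%, background 44.1%) and 6 had none at 7 days (25%, background 25.6%). Of the islands at 2 days 11 of 22 had none at noDox (50%, background 40.4%), and of those at 7 days 15 of 32 (46.9%, background 37.2%), with up to 240.0 reads. The last 2 shares and the first were about 10 percentage points above their backgrounds, and the 7-day share of lost noDox islands was at its background. At these numbers of islands none of these shares stands away from its background.

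**Figure D5:**
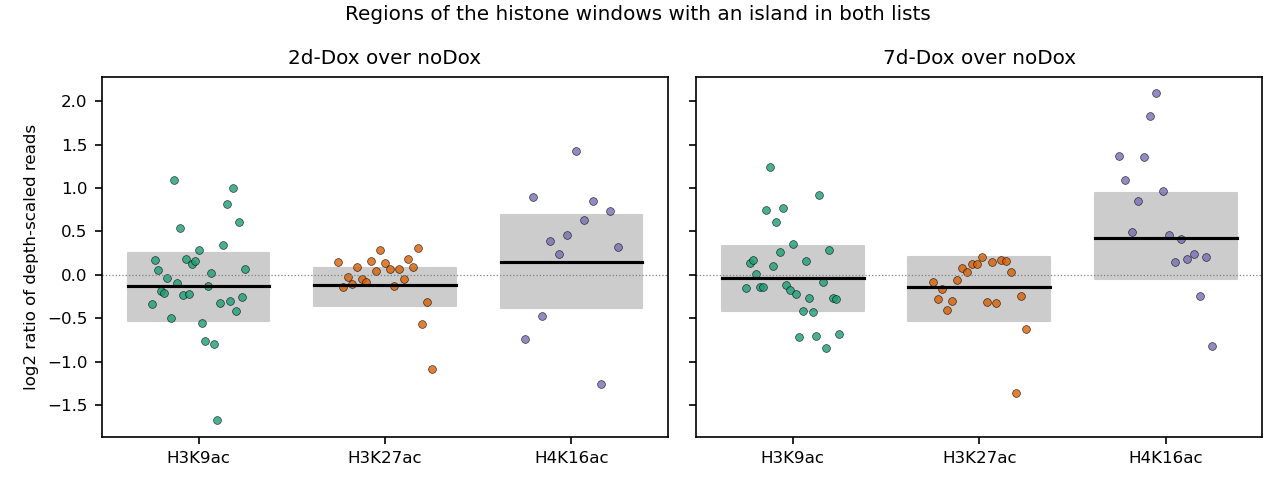
Log2 ratio of scaled reads to noDox for each region of the windows with an island in both lists, by mark, at 2 days and 7 days; each point is a region, and the grey box and black line give the quartiles and median of all regions of the mark. H3K27ac points lie between -1.37 and 0.31, and at 7 days the H4K16ac points lie between -0.82 and 2.09.

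The widest H4K16ac island of the windows at 7 days, chr6:26124001-26145400, was 21.4 kb long and held 718 reads. At noDox this region held 89 reads in 5.2 kb, and at 2 days 65 reads in 4.4 kb, which gave log2 ratios of -0.74 (-1.22 to -0.26) and 1.37 (1.05 to 1.71). The region at chr6:26086601-26104600 had 87, 197 and 579 reads over 6.0, 12 and 17.0 kb, and it was higher at both times (0.89, 0.52 to 1.28, and 1.10, 0.77 to 1.44). Across the start of window 2, chr6:27085201-27095800 had 65, 57 and 284 reads (-0.47, -1.01 to 0.06, and 0.49, 0.10 to 0.90). These regions had wider islands at 7 days and fewer scaled reads per kb, by -0.67, -0.41 and -1.07 on the log2 scale. Inside window 1, chr6:26269401-26279400 had 45, 72 and 253 reads (0.39, -0.16 to 0.96, and 0.85, 0.39 to 1.34). At chr6:26060801-26072800 there were 34, 49 and 271 reads (0.24, -0.42 to 0.92, and 1.36, 0.84 to 1.92), and at chr6:26168001-26176200 there were 25, 42 and 276 (0.46, -0.28 to 1.24, and 1.83, 1.23 to 2.48). These 6 regions were chosen by reads summed over the lists, to which the 7-day library gave the most, so their 7-day ratios are a description only.

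The H4K16ac extremes rest on few noDox reads. The region at chr6:26234001-26241400 had the largest ratio at both times, with 18 reads over 0.8 kb at noDox, 59 over 3.6 kb at 2 days (1.43, 0.65 to 2.28) and 239 over 7.4 kb at 7 days (2.09, 1.40 to 2.87). Per kb of island it was lower at both, at -0.74 and -1.12. The largest fall at 2 days was at chr6:26183001-26190600, with 53, 27 and 182 reads, a ratio of -1.26 (-1.98 to -0.56) and then of 0.14 (-0.31 to 0.61). At 7 days the lowest ratio was at chr6:26179001-26181800, with 30 reads at noDox, no island at 2 days and 53 reads at 7 days (-0.82, -1.49 to -0.12). The widest noDox island of the windows, chr6:27833001-27837400, held 57 antibody and 17 HRP reads, and no H4K16ac island lay there later. It stood only 1.32-fold above HRP by the authors' deposited value. The other 28 H4K16ac regions held between 11 and 240.0 reads where they had an island. Where shared, their ratios ran from 0.32 to 0.85 at 2 days and from -0.24 to 0.96 at 7 days.

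A larger share of H3K9ac and H4K16ac length lay on H3K27ac in the windows than on the rest of chromosome 6, and a smaller share of H3K27ac length lay on H4K16ac. Of the H3K9ac length in the windows 91.7%, 83.0% and 78.1% was also called for H3K27ac at noDox, 2 days and 7 days, against 50.8%, 42.8% and 32.6% on the rest of chromosome 6. Of the H4K16ac length 61.5%, 52.6% and 53.0% was also called for H3K27ac, against 28.5%, 22% and 16.4%. The reverse share went the other way: of the H3K27ac length 12.6%, 13.6% and 40.7% was also called for H4K16ac, below the 28.3%, 32.1% and 50.7% of the rest. In the stretch between windows 1 and 2 the H3K9ac share on H3K27ac was 84.2%, 75.4% and 62.4%, and the H4K16ac share on H3K27ac was 56.3%, 72.8% and 42.2%, the 2-day value being above that of the windows. The H3K27ac share on H4K16ac was 24.7%, 19.9% and 32.6% there, below that of the windows at 7 days. An overlap depends on how much each list covers, and H3K27ac covers far more of the windows than of the rest. H3K27ac without H4K16ac took up 56.4%, 51.9% and 30.9% of the windows, and all 3 marks together 4.95%, 6.35% and 16.2%.

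In the first H3K27ac domain H4K16ac was nearly missing while H3K9ac was broad. Of its 23.4 kb, H3K9ac covered 17.2, 16.8 and 17.8 kb at noDox, 2 days and 7 days, while H4K16ac covered 0.2, 2.4 and 0.0 kb. The domain at chr6:26182201-26210000 (27.8 kb) was covered by H4K16ac over 6.0, 3.2 and 8.4 kb, and that at chr6:26212401-26237800 (25.4 kb) over 0.0, 2.6 and 10.6 kb. At 7 days H4K16ac covered 5.4 kb of chr6:27772201-27794000, 7.8 kb of chr6:27093601-27117800 and 10 kb of chr6:26266401-26288400. Of the 6 domains with the most H3K27ac reads, only the first thus had no H4K16ac island at 7 days. H3K27ac islands with and without H4K16ac in them had 15.5 and 14.9 scaled reads per kb in the windows at noDox and 16.5 and 16.6 at 2 days. At 7 days those without H4K16ac were the denser ones, at 19.2 against 17.3. On the rest of chromosome 6 those with H4K16ac were denser at all 3 times, at 11.3 against 8.98, 12.5 against 10.7, and 14.8 against 12.9.

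Some stretches carried the same calls at all times. H3K27ac was called at all 3 times over 44.8% of the windows (4.55% of the rest of chromosome 6), H3K9ac over 28.7% (4.54%) and H4K16ac over 4.10% (3.71%). The longest such H3K27ac runs were chr6:26019801-26035600 (15.8 kb), chr6:26193601-26207800 (14.2 kb) and chr6:27829801-27842000 (12.2 kb). The longest for H3K9ac was chr6:26170401-26177200 (6.8 kb). All 9 lists met in 5 runs totalling 4.8 kb, the longest at chr6:26087201-26089200 (2.0 kb). No list had an island over 13.9% of the windows, against 65.3% of the rest, and the longest bare runs were chr6:26072801-26086000 (13.2 kb) and chr6:27844201-27855400 (11.2 kb). The longest run without H4K16ac at any time was chr6:27837401-27862800 (25.4 kb), in window 3. How well short reads map to the bare runs was not analysed here.

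Island edges over the windows were compared with the nearest edge of the same side in the later list. For H3K9ac, 9 of 80 noDox edges (11.3%) recurred at the same position at 2 days and 6 (7.50%) at 7 days, against 6.49% and 6.62% on the rest of chromosome 6. The median distance was 600 bp at both times, less than the 1600 and 1800 bp of the rest. For H3K27ac, 7 of 52 edges (13.5%, against 11.3%) recurred at 2 days and 1 (1.92%, against 6.51%) at 7 days. Its median distances, 800 bp and then 1200 bp, equalled those of the rest. H4K16ac edges were the farthest apart, with 0 of 48 at the same position at 2 days (3.71% on the rest) and 3 at 7 days (6.25%, against 3.15%), and medians of 3700 and 2500 bp beside 2800 and 3400 bp. The caller works in bins of 200 bp, so a distance of 600 bp is 3 bins. H3K9ac islands numbered 10 to 12 per 100 kb of the windows and 3.16 to 3.86 per 100 kb of the rest. A nearest edge lies closer where islands are denser, so these distances do not compare how stable the edges were.

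Between 2 and 7 days the windows' H3K9ac sum had a log2 ratio of 0.12 (0.06 to 0.17), the H3K27ac sum one of -0.11 (-0.15 to -0.06) and the H4K16ac sum one of 1.02 (0.92 to 1.12). For H3K27ac 0 of 21 regions shared by these lists were at least 2-fold higher (background 5.5%) and 1 was 2-fold lower (6.85%). For H3K9ac 3 of 32 were higher (8.29%) and 2 lower (4.07%). For H4K16ac 5 of 14 were higher (35.7%, background 16%) and 0 lower (2.46%). The H4K16ac difference over the cluster thus lay between the 2-day and 7-day libraries, whose sizes relative to HRP were 3.08 and 7.88.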

How the data were processed

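Acetylation islands from 9 CUT&RUN libraries (3 marks at noDox, 2d-Dox and 7d-Dox) and 1 HRP control library were used. The submitters' processing notes name hg19 as the build and list Bowtie2 2.3.5.1, SICER, Picard, cutadapt, deepTools and FastQC; their settings, and how duplicates were treated, were not given in the sources used here. Per the file headers, the deposited columns hold whole-number counts of antibody and HRP reads per island, a p-value and FDR, a score, and a log2 fold of the authors. The authors made each list from 1 library. The deposited log2 fold is the log2 antibody-to-HRP ratio minus a constant of the list, with 0.25 entered for an HRP count of 0, and that constant gave each library's size relative to HRP. The deposited score is a fixed multiple of that log2 fold. Islands were filtered by the authors' FDR, at most 0.05 in each list.

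Antibody reads of islands overlapping the windows were summed, divided by relative library size and compared as log2 ratios, with called length and reads per kb of island beside them, in Python 3.11.15 with pandas 2.3.3 and scipy 1.17.1. Whole islands were counted, also where they run past a window. Called shares use only the length inside a window. Islands of a mark touching over its 3 lists were merged into regions, compared where both lists had an island, and called at 2-fold; the background is the same over all regions of chromosomes 1 to 22 and X. Clopper-Pearson intervals at 95% cover counting error only, and they may be too narrow, since PCR copies cannot be told from separate molecules. The total depth is known only relative to HRP. The code was tested on simulated data. Regions in full are, per mark, the 6 with most reads over the 3 lists, per time the largest rise and fall with at least 50 reads in either list, and those with each list's widest island; other regions are given by ranges. Members, lists and this rule were chosen with earlier results of these data known. Alternatives were library scaling by island reads or by the median region, an FDR of at most 0.01, islands at least 2-fold over HRP, islands wholly inside a window, and lengths or reads restricted to the window. Coordinates of islands are 1-based on hg19, and those of promoters are on GRCh38.p14. Proteins were not analysed here.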

Additional observations from a re-analysis of the deposited data

How the results depend on the processing

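Of 60 alternative values for 12 comparisons over the windows, 40 stayed within the counting interval of the reported value (for length, an interval over its bins). The others, on the log2 scale, were as follows. Scaling by summed island reads gave 0.13 for H3K27ac reads at 2 days and 0.49 for H4K16ac reads at 7 days. Centring on the median of all regions gave 0.094 for H3K9ac at 2 days, 0.14 and 0.058 for H3K27ac at 2 and 7 days, and -0.18 and 0.57 for H4K16ac. Islands at least 2-fold over HRP gave reads of -0.16 and -0.076 and lengths of -0.16 and -0.0076 for H3K9ac at 2 and 7 days, and reads of -0.28 and 0.34 and lengths of -0.13 and 0.92 for H4K16ac. Islands wholly inside a window gave reads of 0.26 and 0.17 and lengths of 0.11 and -0.10 for H3K27ac. That choice left out the noDox island of 1699 reads that crosses the start of window 1, so it does not compare like stretches. An FDR of at most 0.01 gave 0.11 for H4K16ac reads at 2 days. The cause of these shifts was not tested. The windows' 7-day H4K16ac ratio to noDox kept its sign under every alternative run, and its size did not; the ratio of the rest of chromosome 6 was not recomputed under them. The smallest H4K16ac island in the windows held 11 reads at noDox, 27 at 2 days and 53 at 7 days. No detection limit was measured, so whether weaker sites were missed in a list cannot be said. No paired analysis was possible because each mark and time has 1 library; for the same reason no library could be left out.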
